A study of Homo sapiens with 6 samples.

Results

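The transcripts described here are GAS5 and the small nucleolar RNA host genes SNHG1, SNHG3, SNHG5, SNHG6, SNHG7, SNHG8, SNHG9, SNHG12 and SNHG15. They were found by name among the gene names of each locus: all 10 were present, as 10 of the 62828 loci measured, and all 10 had a mean of at least 1 FPKM (fragments per kilobase of transcript, relative to library size) over the libraries. SNHG3 shares its locus with the protein-coding gene RCC1, and that locus is written RCC1,SNHG3 below. The study measured RNA of K562 cells, an established human line from chronic myelogenous leukemia, and its title asks whether the nuclear RNA-binding protein HNRNPU sets where long noncoding RNAs (lncRNAs) lie in the cell. HNRNPU knockdown (KD) cells were transfected with siRNA against HNRNPU at 300 nM, and control cells received control oligos. From each condition a library was made of whole-cell, of nuclear and of cytosolic RNA, so that each of the 6 groups has 1 library. No difference therefore has a replicate check, and no test between conditions was made. FPKM values are relative to their library, and in these bulk samples fewer cells and less RNA per cell cannot be told apart.

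Small nucleolar RNAs (snoRNAs) guide the chemical modification and the cleavage of ribosomal and other RNAs. Most human snoRNAs lie in introns. The host gene is transcribed and spliced, the intron is opened and trimmed, and the snoRNA stays in the nucleus bound to its proteins, while the spliced exons form a host transcript of its own. Box C/D snoRNAs guide methylation and box H/ACA snoRNAs guide pseudouridylation. Many spliced hosts carry only short reading frames, reach ribosomes and are degraded by nonsense-mediated decay, as is known for GAS5. Many also start, like the mRNAs of ribosomal proteins, with a C followed by a run of C and T (a 5′ terminal oligopyrimidine, or TOP, start). In the RefSeq annotation, 11 snoRNA genes lie within GAS5, of which 10 are C/D. SNHG1 holds 9, of which 8 are C/D. SNHG5 holds 2 and SNHG6 holds 1, all C/D. SNHG3 and SNHG7 hold 2 H/ACA genes each, and SNHG8, SNHG9 and SNHG15 hold 1 H/ACA gene each. SNHG12 holds 3 H/ACA genes and 1 C/D gene.

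The bases around the annotated start of each host are shown because the TOP start is a property that hosts are known to share. Windows from RefSeq (GRCh38.p14) are given for 7 of the 10 genes. No start was available for SNHG9 and SNHG15, and SNHG6 was left out when the windows were taken. Each window runs 5′ to 3′ over 50 bases, 20 before the start and 30 from it on, and capitals mark the longest run of C and T, or both where 2 were equally long, as in SNHG1.
GAS5 (chr1:173869016-173869065, minus strand): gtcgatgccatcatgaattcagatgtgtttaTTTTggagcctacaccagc
SNHG1 (chr11:62855856-62855905, minus strand): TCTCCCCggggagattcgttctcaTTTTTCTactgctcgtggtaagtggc
SNHG3 (chr1:28505923-28505972, plus strand): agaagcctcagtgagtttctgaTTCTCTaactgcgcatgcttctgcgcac
SNHG5 (chr6:85678704-85678753, minus strand): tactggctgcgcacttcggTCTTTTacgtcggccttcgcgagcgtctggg
SNHG7 (chr9:136728155-136728204, minus strand): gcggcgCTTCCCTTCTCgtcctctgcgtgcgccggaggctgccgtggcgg
SNHG8 (chr4:118278742-118278791, plus strand): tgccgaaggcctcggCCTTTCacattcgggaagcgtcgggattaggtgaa
SNHG12 (chr1:28581844-28581893, minus strand): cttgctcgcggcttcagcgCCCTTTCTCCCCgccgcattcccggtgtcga
A C followed by 4 bases that are each C or T lay between 5 bases before and 10 bases after the start, read on the transcript's strand, in 4 of the 7 windows (SNHG5, SNHG7, SNHG8 and SNHG12), and in 21.1% of 35116 RefSeq promoters. The longest run was 12 bases in SNHG12 and 11 bases in SNHG7, and 4.77% and 6.74% of all promoters had a run as long. It was 4 bases in GAS5, where 83.9% of promoters had as long a run. The SNHG7 run began at position -14 from the start and ended before it, so it lies outside the annotated transcript. The stretch that counted for SNHG7 above is another one, cctct, which spans the start. The SNHG8 run began at -5 and ended on the start base, and the SNHG12 run began at -1. The table gives 1 start per gene, and the start used in K562 cells was not measured.

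The knockdown was visible in the RNA of its target. The HNRNPU locus, which includes HNRNPU-AS1, had 55.3, 63.7 and 34.9 FPKM in whole-cell, nuclear and cytosolic RNA of HNRNPU KD cells, against 128.7, 163 and 158 FPKM in the same order in control cells, so 43.0%, 39.0% and 22.1% was left. The nuclear lncRNA MALAT1 had 2352 nuclear and 106 cytosolic FPKM in HNRNPU KD cells, against 1984 nuclear and 141 cytosolic FPKM in control cells. LINC00657 (NORAD), a mainly cytosolic lncRNA, had 52.8 and 144 FPKM in HNRNPU KD cells, against 50.9 and 157 FPKM in control cells, in the same order. All 12 loci of erythroid K562 markers had a mean of at least 1 FPKM, and 4 of 15 markers of other cell types did. Those 4 were EPCAM (mean 17.7 FPKM), CD3D (15.2 FPKM), COL1A2 (10.4 FPKM) and CD3E (1.68 FPKM). The erythroid means ran from 4.52 FPKM at the EPOR locus to 851 FPKM at the locus of HBE1 and HBG2, so the levels overlap. A value of 1 FPKM over 1 kilobase stood for about 19.2, 40.1 and 15.2 fragments in whole-cell, nuclear and cytosolic RNA of HNRNPU KD cells, against 23.7, 19.9 and 13.7 fragments in control cells.

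Host loci differed widely in level, and 3 of them were among the most abundant lncRNAs of these cells. Among 299 lncRNA loci in whole-cell RNA, SNHG5 ranked 4, GAS5 6 and SNHG1 8 in both conditions. In whole-cell RNA of both conditions the order was RCC1,SNHG3, SNHG5, GAS5, SNHG1, SNHG6, SNHG8, SNHG12, SNHG15, SNHG7 and SNHG9. Neighbours in that order were further apart than the 95% range of their counting error wherever that error could be estimated, which left out RCC1,SNHG3. In nuclear RNA, SNHG6, SNHG8 and SNHG12 lay within counting error of their neighbours among those 3 in both conditions. In cytosolic RNA, SNHG5 and GAS5 led. RCC1,SNHG3 stood first in nuclear RNA and between SNHG1 and SNHG8 in cytosolic RNA. Counting errors here come from estimated fragments per locus, cover counting only, and say nothing of the spread between cultures.

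**Figure D1:**
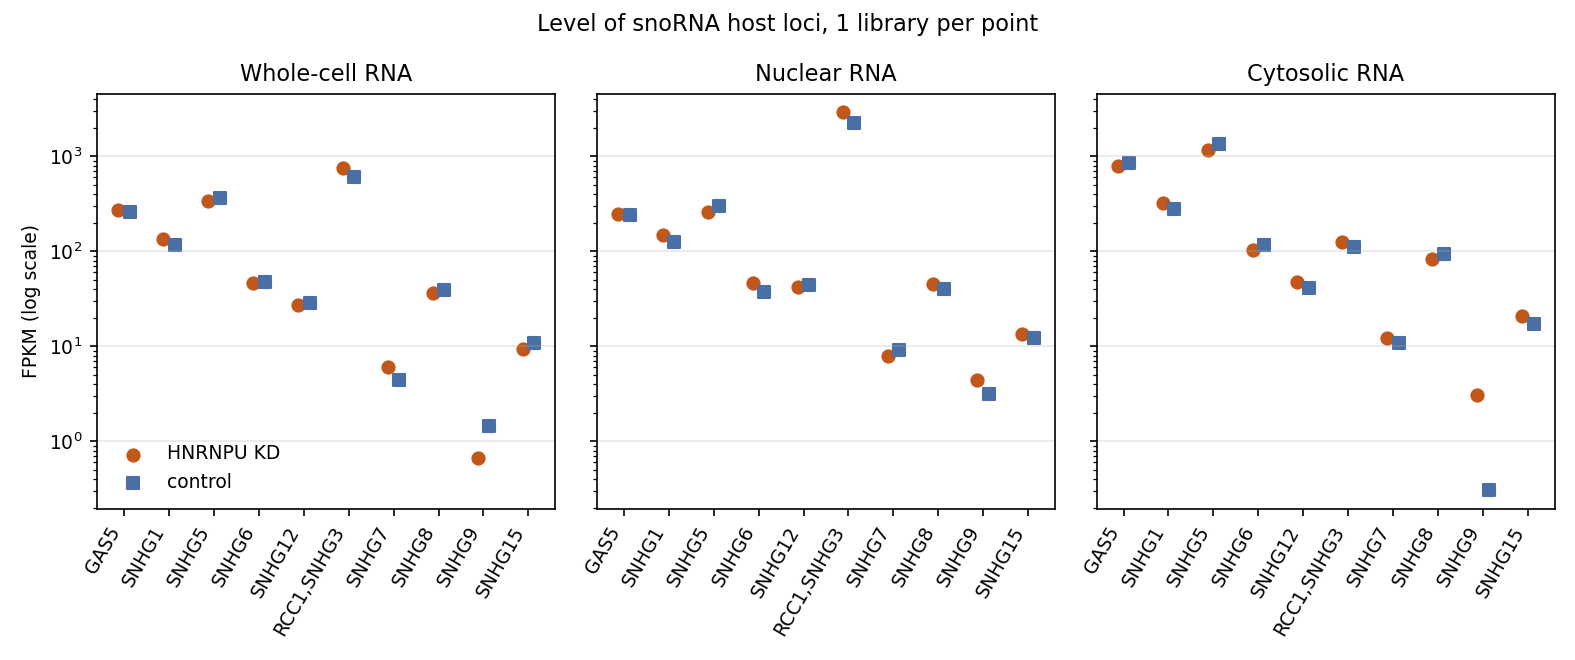
FPKM (log scale) of the 10 host loci in whole-cell, nuclear and cytosolic RNA, with HNRNPU KD as circles and control as squares, 1 library per point. The 2 conditions lie close together at every locus but SNHG9, and RCC1,SNHG3 is the only locus far higher in nuclear than in cytosolic RNA in both conditions.

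On the deposited scale 8 of the 10 loci had more cytosolic than nuclear RNA in HNRNPU KD cells and 7 in control cells. In HNRNPU KD cells, 4 of the 10 loci had cytosolic values at least 2-fold above nuclear values (28.4% of all loci did), and these were GAS5, SNHG1, SNHG5 and SNHG6. In control cells it was those 4 and SNHG8 (29.1% of all loci). Nuclear values were at least 2-fold above cytosolic values at 1 locus in HNRNPU KD cells, RCC1,SNHG3 (14.4% of all loci), and at 2 in control cells, RCC1,SNHG3 and SNHG9 (16% of all loci). The median log2 ratio of nuclear to cytosolic FPKM over the 10 loci was -0.77 in HNRNPU KD cells and -0.82 in control cells. Over all 12838 loci that averaged 1 FPKM or more it was -0.47 in HNRNPU KD cells and -0.44 in control cells, and over 10308 protein-coding loci it was -0.61 in both. These ratios compare separately scaled libraries. Their absolute size moves with the scaling, and their order within a library does not move under a common factor: equal protein-coding medians left the locus median at -0.24 in HNRNPU KD cells and -0.29 in control cells, and equal totals turned it to 0.19 in HNRNPU KD cells and 0.17 in control cells. The number of loci with at least 2-fold more cytosolic RNA was then 2 in HNRNPU KD cells and 3 in control cells with equal protein-coding medians, 1 in each with equal totals, and 0 in each with quantile normalization, where the medians were -0.02 in HNRNPU KD cells and -0.04 in control cells.

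**Figure D2:**
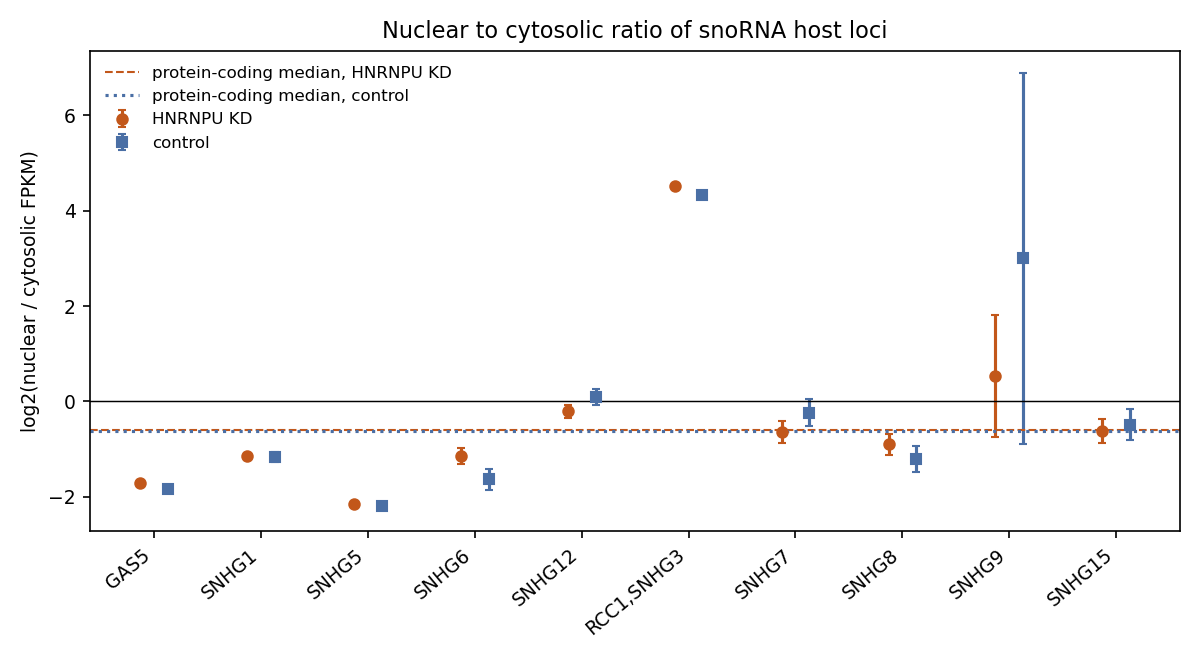
Log2 ratio of nuclear to cytosolic FPKM of each host locus in HNRNPU KD (circles) and control (squares) cells, 1 library per preparation; bars are 95% ranges of counting error, with none for RCC1,SNHG3, and broken lines are the medians of protein-coding loci. GAS5, SNHG1, SNHG5 and SNHG6 lie below -1 in both conditions, RCC1,SNHG3 lies above 4 in both, and the range of SNHG9 spans 0.

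GAS5, named for its accumulation in growth-arrested cells, had 271, 245.8 and 799.8 FPKM in whole-cell, nuclear and cytosolic RNA of HNRNPU KD cells, against 259.8, 240.1 and 853 FPKM in the same order in control cells. The whole-cell and nuclear values of the conditions lay within counting error of each other. Cytosolic GAS5 was lower in HNRNPU KD cells by a log2 ratio of -0.09, with a counting range of -0.15 to -0.04. Cytosolic GAS5 was 3.25 times nuclear GAS5 in HNRNPU KD cells and 3.55 times in control cells. The localization shift, which is the log2 nuclear to cytosolic ratio in HNRNPU KD cells minus that in control cells, was 0.13 for GAS5 (counting range 0.03 to 0.22). A positive shift is toward the nucleus. The locus lies at chr1:173833037-173838020 (hg19) on the minus strand.

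SNHG1, the host of SNORD22 and SNORD25 to SNORD31, was the C/D host that was higher in HNRNPU KD cells in every preparation. It had 135, 147 and 326 FPKM in whole-cell, nuclear and cytosolic RNA of HNRNPU KD cells, against 116, 126 and 282 FPKM in control cells. The log2 ratios were 0.22, 0.22 and 0.21, each beyond its counting range. Its nuclear to cytosolic ratio was the same to within counting error in both conditions (log2 of -1.15 in HNRNPU KD cells and -1.16 in control cells).

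SNHG5, the host of SNORD50A and SNORD50B, was the most cytosolic of the 10 loci and the opposite of SNHG1 in direction. It had 336, 263 and 1168 FPKM in whole-cell, nuclear and cytosolic RNA of HNRNPU KD cells, against 362, 298 and 1365 FPKM in control cells. The log2 ratios of -0.11, -0.18 and -0.23 were each beyond their counting range. Cytosolic SNHG5 was 4.45 times nuclear SNHG5 in HNRNPU KD cells and 4.58 times in control cells, and the shift was 0.04 with a counting range of -0.04 to 0.13.

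SNHG6, on chromosome 8 and the host of SNORD87, had the largest shift toward the nucleus of the 10 loci. It had 46.2, 46.6 and 102.8 FPKM in whole-cell, nuclear and cytosolic RNA of HNRNPU KD cells, against 47.3, 37.8 and 117 FPKM in control cells. The nuclear value was higher in HNRNPU KD cells (log2 ratio 0.30, counting range 0.09 to 0.52) and the cytosolic value lower (-0.19, counting range -0.37 to -0.01), while the whole-cell values lay within counting error. Opposite signs with both ratios beyond their counting range were found at 2.49% of all loci with an estimate. The shift was 0.49, with a counting range of 0.21 to 0.77. Of all loci, 90.1% had a lower shift.

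Among hosts of H/ACA snoRNAs, which were not tested against the hosts of C/D snoRNAs, SNHG7, SNHG8 and SNHG15 had log2 ratios of nuclear to cytosolic FPKM of -0.64, -0.90 and -0.62 in HNRNPU KD cells, against -0.23, -1.21 and -0.48 in control cells. SNHG8, the host of SNORA24, had 36.1, 44.97 and 83.8 FPKM in whole-cell, nuclear and cytosolic RNA of HNRNPU KD cells, against 39.7, 40.4 and 93.5 FPKM in control cells. Its shift of 0.31 had a counting range of -0.03 to 0.65, which includes 0. SNHG15, the host of SNORA9, had 9.43, 13.4 and 20.7 FPKM in HNRNPU KD cells, against 10.9, 12.2 and 17.1 FPKM in control cells, in the same order. None of its ratios between conditions left the counting range.

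SNHG7, the host of SNORA17A and SNORA17B, had 6.06, 7.85 and 12.3 FPKM in whole-cell, nuclear and cytosolic RNA of HNRNPU KD cells, against 4.44, 9.24 and 10.9 FPKM in control cells. Whole-cell SNHG7 was higher in HNRNPU KD cells, with a log2 ratio of 0.44 and a counting range of 0.10 to 0.78. The nuclear value had the other sign (-0.23, counting range -0.47 to 0.00). The shift was -0.41 with a counting range of -0.78 to -0.05, toward the cytosol. FAM69B, an antisense neighbour, overlaps 2686 bases of this locus and had 2.63, 2.25 and 6.10 FPKM in HNRNPU KD cells, against 3.83, 3.07 and 7.75 FPKM in control cells. The sources used here do not say whether fragments were assigned by strand, so the genes cannot be told apart within the overlap.

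SNHG9, the host of SNORA78, was the only one of the 10 loci past 2-fold between conditions, and its values rest on a few fragments. It had 0.670, 4.44 and 3.04 FPKM in whole-cell, nuclear and cytosolic RNA of HNRNPU KD cells, against 1.46, 3.17 and 0.309 FPKM in control cells. These stand for about 1.71, 23.7 and 6.14 fragments in HNRNPU KD cells, against 4.59, 8.40 and 0.563 in control cells. The log2 ratio was -1.01 in whole-cell RNA (counting range -3.55 to 1.52) and 2.94 in cytosolic RNA (counting range -0.996 to 6.88). The shift of -2.47 had a counting range of -6.57 to 1.63, so a difference was not detectable at this depth. The locus ends the list of levels and lies 97 bases from the locus of RPS2, which had 1624 FPKM in whole-cell RNA of HNRNPU KD cells and 1565 FPKM in that of control cells.

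SNHG12, which holds snoRNA genes of both classes, had 27.4, 41.7 and 47.9 FPKM in whole-cell, nuclear and cytosolic RNA of HNRNPU KD cells, against 28.4, 44.0 and 41.3 FPKM in control cells. The cytosolic value was higher in HNRNPU KD cells (log2 ratio 0.21, counting range 0.04 to 0.39), and the other preparations lay within counting error. On the deposited scale its nuclear to cytosolic log2 ratio was -0.20 in HNRNPU KD cells and 0.09 in control cells. With equal totals it was 0.76 in HNRNPU KD cells and 1.09 in control cells, and the sign in HNRNPU KD cells turned under all 3 scalings. The shift was -0.29, toward the cytosol, with a counting range of -0.51 to -0.08.

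RCC1,SNHG3 had the highest ratio of nuclear to cytosolic RNA of the 10 host loci in both conditions. It had 755.5, 2904 and 126.6 FPKM in whole-cell, nuclear and cytosolic RNA of HNRNPU KD cells, against 599.7, 2255 and 112 FPKM in control cells. Nuclear values were 22.9 times the cytosolic values in HNRNPU KD cells and 20.2 times in control cells. The log2 ratios of HNRNPU KD to control were 0.33, 0.36 and 0.18, with no counting error because the locus (chr1:28832454-28865812, hg19, plus strand) joins 2 genes. A separate locus inside it, SNORA73B (chr1:28835070-28835274, hg19), had a nuclear excess too: 737.6, 3079 and 148 FPKM in HNRNPU KD cells, against 695.7, 2389 and 180.5 FPKM in control cells. Its log2 ratios of HNRNPU KD to control were 0.08, 0.37 and -0.29, so that its cytosolic value differed in the other direction from that of RCC1,SNHG3, and its shift was 0.66, beside 0.19 for RCC1,SNHG3. SNORA73 is the H/ACA snoRNA also called U17, which acts in the cleavage of the ribosomal RNA precursor. Both copies lie within SNHG3, and no locus of the table is named SNORA73A. They are printed because fragments from either could have been counted with the host. Capitals mark the ACA box, which ends 3 bases before the 3′ end, in the GENCODE release 29 sequences.
SNORA73A: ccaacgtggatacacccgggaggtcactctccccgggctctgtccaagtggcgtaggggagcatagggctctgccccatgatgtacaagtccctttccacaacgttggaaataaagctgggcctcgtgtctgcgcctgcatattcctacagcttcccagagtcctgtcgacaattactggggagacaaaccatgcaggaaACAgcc
SNORA73B: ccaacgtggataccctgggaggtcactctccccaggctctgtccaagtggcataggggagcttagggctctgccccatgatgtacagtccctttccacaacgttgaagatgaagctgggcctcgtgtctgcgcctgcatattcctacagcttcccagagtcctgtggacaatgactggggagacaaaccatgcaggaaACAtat
The copies were identical at 192 of 206 aligned positions (93.2%). Fragments of RCC1, of spliced SNHG3 and of the snoRNAs cannot be told apart in the locus value, so the nuclear excess is a property of the locus and not shown for spliced SNHG3. The snoRNAs themselves were hardly measured: of 47 loci named for snoRNAs of the hosts, copies elsewhere in the genome included, 46 are listed at 0 in all 6 libraries. These include SNORD78 in GAS5 and SNORD99 in SNHG12, and the snoU13 locus inside RCC1,SNHG3 is also listed at 0.

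Across the 10 loci the differences between conditions were small. The median log2 ratio of HNRNPU KD to control over the hosts was -0.04 for whole-cell RNA, 0.15 for nuclear RNA and 0.18 for cytosolic RNA, beside 0.06, 0.03 and 0.03 over all loci. Past 2-fold lay SNHG9 in whole-cell RNA (lower) and in cytosolic RNA (higher), and no locus in nuclear RNA. Of all loci 2.66% were past 2-fold in whole-cell RNA, 2.55% in nuclear RNA and 5.25% in cytosolic RNA. Of the 9 loci with a counting error, 3 left its 95% range in whole-cell RNA, 3 in nuclear RNA and 5 in cytosolic RNA. Of 9172 loci with such an estimate 22.7% left theirs in whole-cell RNA, 32.1% in nuclear RNA and 24.3% in cytosolic RNA, and this share depends on depth. The sign of the ratio was the same in all 3 preparations at 3 loci, SNHG1 and RCC1,SNHG3 (higher in HNRNPU KD cells) and SNHG5 (lower), where 37.9% of all loci did so. Nuclear and cytosolic ratios had opposite signs at 5 loci (40.5% of all loci). The whole-cell value lay below both the nuclear and the cytosolic value at 7 loci in HNRNPU KD cells (48.4% of all loci) and at 5 loci in control cells (49.9% of all loci). The sign for GAS5 turned under 2 of 3 other scalings in whole-cell RNA and under 1 in nuclear RNA.

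**Figure D3:**
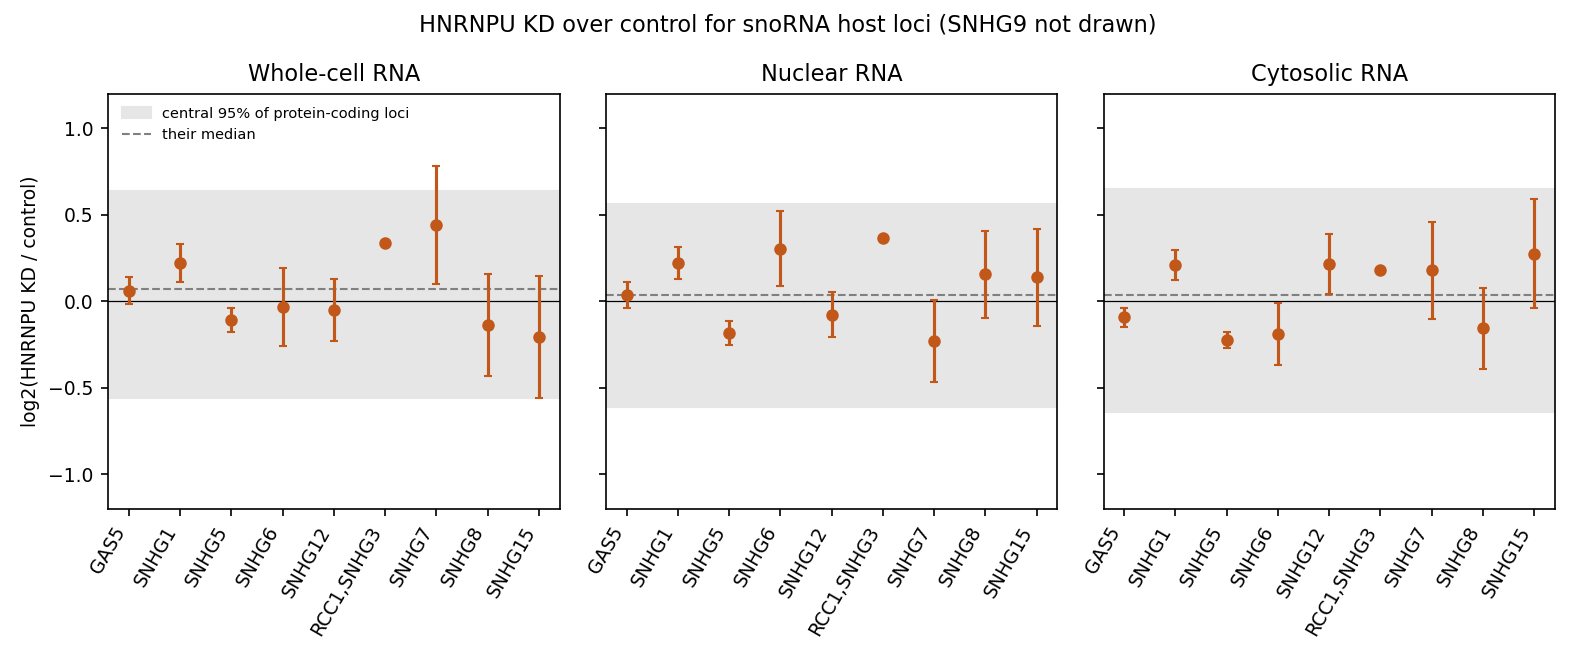
Log2 ratio of HNRNPU KD to control FPKM in whole-cell, nuclear and cytosolic RNA for 9 host loci, 1 library per condition; bars are 95% ranges of counting error, with none for RCC1,SNHG3, the band holds the central 95% of protein-coding loci and the broken line is their median. Every point lies inside the band, and SNHG9, at -1.01, 0.47 and 2.94, is not drawn.

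The nuclear to cytosolic balance also differed little between conditions. The median shift was 0.03 over the 10 loci and 0.00 over all loci. It lay past 2-fold at SNHG9 alone (7.1% of all loci). Shifts beyond the 95% counting range were toward the nucleus at GAS5 and SNHG6 and toward the cytosol at SNHG7 and SNHG12, which is 4 of the 9 loci with an estimate (20.3% of all loci with one). Each of these 4 kept its sign under every scaling and pseudocount tried. So did the shifts of SNHG8, SNHG9 and SNHG15, which lay within their counting ranges. Those of SNHG1, SNHG5 and RCC1,SNHG3 each turned under 1 scaling. Only signs were compared here: the GAS5 shift was 0.09 with equal totals, where its counting range would reach 0. Equal medians and equal totals move all shifts nearly alike, so a shift far from 0 keeps its sign under them in any case.

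**Figure D4:**
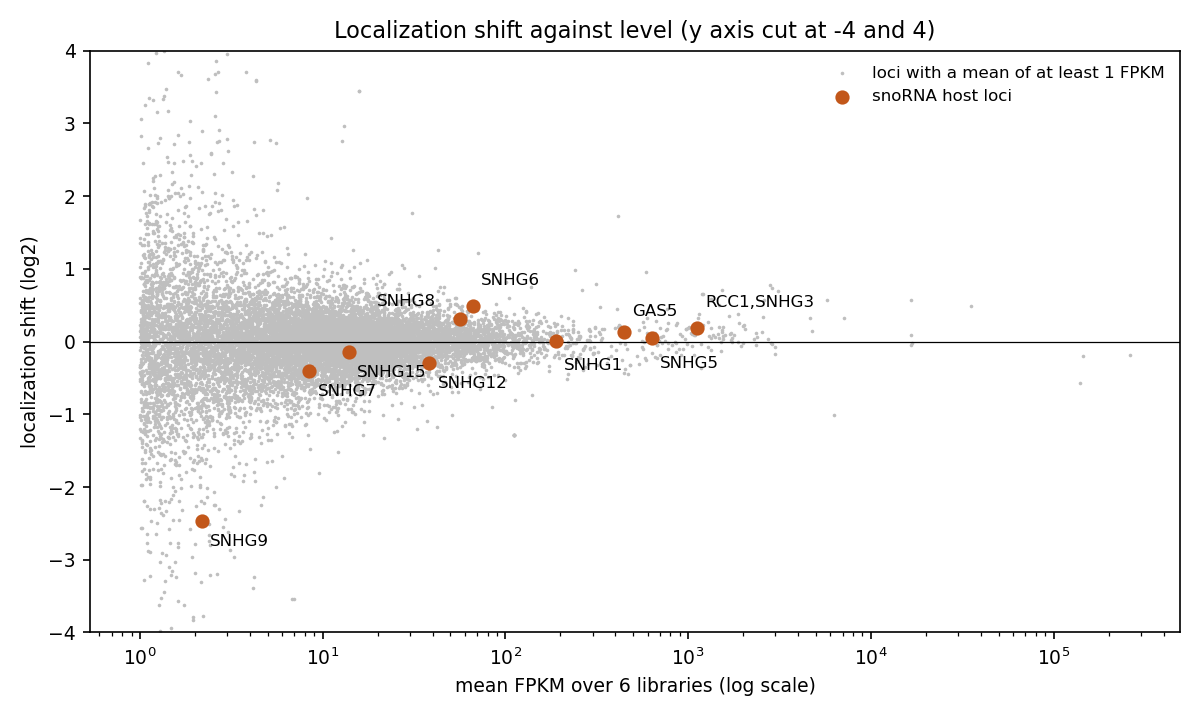
Localization shift (log2) against mean FPKM over the 6 libraries (log scale) for the 12838 loci that averaged 1 FPKM or more (grey) and the 10 host loci (orange); 87 loci lie outside the drawn range of -4 to 4. The spread of all loci is wide at low FPKM, where SNHG9 lies, and the host loci of higher level lie between -0.41 and 0.49.

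In hg19 coordinates SNHG1 lies at chr11:62619459-62623386, SNHG5 at chr6:86370709-86388451, SNHG7 at chr9:139615817-139622636, SNHG12 at chr1:28905049-28909495 and SNHG15 at chr7:45022621-45026560, all on the minus strand. SNHG8 lies at chr4:119199863-119200978 and SNHG9 at chr16:2014959-2015510, both on the plus strand. Neighbouring genes touch several of these loci. GAS5-AS1 overlaps GAS5 by 43 bases and had 3.08, 4.48 and 0.866 FPKM in whole-cell, nuclear and cytosolic RNA of HNRNPU KD cells, against 3.89, 5.75 and 1.43 FPKM in control cells. ZBTB37 overlaps GAS5 by 802 bases. SLC3A2 begins 130 bases from SNHG1 and had a log2 ratio of HNRNPU KD to control of 0.07 for whole-cell RNA, -0.01 for nuclear RNA and 0.12 for cytosolic RNA, beside 0.22, 0.22 and 0.21 for SNHG1. TRNAU1AP overlaps SNHG12 by 3 bases and MCMDC2 overlaps SNHG6 by 366 bases.

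A further 9 loci listed as noncoding hosts met the same minimum. Of these, 7 had at least 2-fold more cytosolic than nuclear RNA in HNRNPU KD cells (28.4% of all loci). In control cells 6 did (29.1% of all loci). These counts are on the deposited scale, and other scalings were not run for these lists. The list holds LINC00116 and SNHG10, for which RefSeq lists no snoRNA. RefSeq classes LINC00116 as protein-coding (MTLN), and it is in both counts. SNHG16, the host of SNORD1A to SNORD1C, had 98.7, 85.7 and 335 FPKM in whole-cell, nuclear and cytosolic RNA of HNRNPU KD cells, against 82.2, 62.3 and 309 FPKM in control cells, a shift of 0.34. EPB41L4A-AS1, the host of SNORA13, had 25.9, 25.8 and 93.7 FPKM in HNRNPU KD cells, against 22.0, 24.2 and 70.2 FPKM in control cells, a shift of -0.32. SNHG11 had a shift of -0.63 and LINC00116 one of -0.81. None of the 9 was past 2-fold in any preparation or in its shift.

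Protein-coding snoRNA hosts and TOP mRNAs had lower median nuclear to cytosolic ratios than the 10 loci described here, which include the merged RCC1,SNHG3. The 9 other loci listed as noncoding hosts had median log2 ratios of -1.92 in HNRNPU KD cells and -1.53 in control cells. The median log2 ratio of nuclear to cytosolic FPKM over 45 protein-coding hosts was -1.90 in HNRNPU KD cells and -1.91 in control cells, and over 40 TOP mRNAs it was -2.04 in HNRNPU KD cells and -2.05 in control cells. All 40 TOP mRNAs had at least 2-fold more cytosolic than nuclear RNA in both conditions, and 3 of these loci carry a snoRNA name. EEF1A1, a translation elongation factor, had 3985, 2944 and 14691 FPKM in whole-cell, nuclear and cytosolic RNA of HNRNPU KD cells, against 3702, 2438 and 15233 FPKM in control cells. RPL32, a ribosomal protein gene that hosts SNORA7A, had a shift of 0.34. TAF1D, which hosts several H/ACA snoRNAs, had a log2 ratio of nuclear to cytosolic FPKM of 0.39 in HNRNPU KD cells and -0.06 in control cells. CHD8, a chromatin remodeller, had a shift of -0.42. None of these loci was past 2-fold between conditions in a preparation or in its shift.

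Genes of the machinery around snoRNA hosts differed little between conditions. The median log2 ratio in whole-cell RNA was 0.06 over 18 genes of nonsense-mediated decay, 0.08 over 18 snoRNA-protein complex genes and 0.11 over 11 genes of intron opening and snoRNA processing, against 0.06 over all loci, with none past 2-fold. XRN1, the cytosolic 5′ to 3′ exonuclease, had 8.31 FPKM in whole-cell RNA of HNRNPU KD cells and 5.44 FPKM in that of control cells. Its log2 ratio was 0.23 in nuclear RNA and, the other way, -0.25 in cytosolic RNA. DCP2, which removes the cap, had 32.9 and 25.3 whole-cell FPKM in the same order of conditions. Its log2 ratios were 0.17 nuclear and 0.19 cytosolic. PARN, a deadenylase that trims H/ACA ends, had 24.5 and 18.1 whole-cell FPKM, but log2 ratios of -0.07 nuclear and 0.02 cytosolic. SHQ1, which assists H/ACA complex assembly, had 5.48 and 4.21 whole-cell FPKM, and a shift of 0.86. Its log2 ratio was 0.69 in nuclear and -0.17 in cytosolic RNA. Over 14 mRNAs known to be sensitive to nonsense-mediated decay the median whole-cell log2 ratio was -0.01. The ratios ran from -0.93 (CDKN1A) to 0.94 (UPP1), both at a mean below 5 FPKM. ATF4, a stress transcription factor on that list, had 197 whole-cell FPKM in HNRNPU KD cells and 199 in control cells. ATF3, also on it, had 10.3 and 8.39 whole-cell FPKM in the same order, and a nuclear log2 ratio of 0.61.

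The profile of GAS5 over the 6 libraries, with each locus set to its own mean log2 level, was nearest to that of COX5A among 8489 other loci that averaged 5 FPKM or more. The root-mean-square difference was 0.02 on the log2 scale, where the median locus differed by 0.48. COX6B1, RALB, ISOC1 and HNRNPA1 came next. COX5A had 152.5, 139.6 and 449 FPKM in whole-cell, nuclear and cytosolic RNA of HNRNPU KD cells, against 151, 135 and 477 FPKM in control cells. A median profile was taken over the 9 hosts that averaged 5 FPKM or more, which leaves out SNHG9. The loci nearest to it were RIT1, CCBL2,RBMXL1, RFC2, and those that hold TRAPPC4 and RAB5B.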

How the data were processed

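The authors deposited FPKM values, 1 column per library. No header states that unit, and it was inferred from the range of the values and from Cuffdiff 2.2.1, which the submitters' processing notes list beside TopHat2 2.0.13, FastQC and CASAVA. Of the listed builds, mm9 and hg19, the table's coordinates are of hg19. The sources used here do not give library scaling, annotation, the strand of counting or whether the preparations share a culture. Antisense or merged loci may hold fragments of other genes.

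Ratios are differences of log2(FPKM + 0.1), which understates the change of low loci, over loci that averaged 1 FPKM or more. With 1 library per group no p-value was computed, and 2-fold was the rule of size. The value of 1 fragment per kilobase was read from steps of low FPKM at single-exon loci after subtracting 240 bases from each length, a number chosen after seeing the data. Fragments per gene follow from it and the median GENCODE release 29 transcript length. Counting errors and their 95% ranges rest on these estimates and cover counting only. Loci of a single named gene have one. Gene types came from GENCODE by symbol, and sequences from RefSeq GRCh38.p14 and GENCODE, whose coordinates were not mixed with those of the table.

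All 10 hosts are named, with up to 4 genes of each other list, those of largest shift or, for factor lists, largest whole-cell ratio, at a mean of at least 5 FPKM (1 FPKM for noncoding hosts). Not every gene so picked is mentioned. The hosts and lists were chosen with earlier results of these data known. Neighbouring loci, start windows, snoRNA counts and printed sequences were chosen after the values were seen. Alternatives were the pseudocount, the minimum, 3 scalings and leaving out a locus. Calculations ran in Python 3.11.15 (pandas 2.3.3, numpy 2.4.6, matplotlib 3.10.9). The value of 1 fragment per kilobase and the localization shift were tested on simulated data, and the counting ranges and scalings were not.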

Additional observations from a re-analysis of the deposited data

Results flagged for a closer look

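SNHG6 differed in opposite directions in the 2 compartments. The log2 ratio of HNRNPU KD to control was 0.30 in nuclear RNA and -0.19 in cytosolic RNA. In the values as deposited each lay beyond its 95% counting range, as at 2.49% of all loci with an estimate. With equal totals the cytosolic ratio was -0.17, and its counting range would then take in both signs. The difference between the compartments was not tested against the spread between cultures, since each group has 1 library. MCMDC2, which overlaps SNHG6 by 366 bases, had a mean of 0.279 FPKM over the libraries.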

How the results depend on the processing

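The host median of the log2 ratio of HNRNPU KD to control kept its sign under every alternative, lying from -0.15 to -0.03 for whole-cell, from 0.09 to 0.15 for nuclear and from 0.14 to 0.20 for cytosolic RNA. These alternatives left out 1 locus at a time. Without both SNHG9 and the merged locus, the cytosolic median was 0.04, with 4 loci higher and 4 lower in HNRNPU KD cells. The nuclear median was then 0.09. The median shift of 0.03 did not keep its sign: it was -0.01 with equal totals and -0.07 with quantile normalization. The median nuclear to cytosolic log2 ratio turned to 0.19 in HNRNPU KD cells and 0.17 in control cells with equal totals without mitochondrial and small RNA loci, a scaling that moved the protein-coding medians to 0.35 and 0.39 in the same order. Minus the protein-coding median, the hosts lay at -0.16 in HNRNPU KD cells and -0.21 in control cells in the values as deposited, 0.11 and 0.10 with quantile normalization, and -0.29 and -0.55 without the SNHG9 locus or without the merged locus, in the same order. The hosts with at least 2-fold more cytosolic RNA numbered 2 in HNRNPU KD cells and 3 in control cells with equal protein-coding medians, 1 and 1 with equal totals, and 0 and 0 with quantile normalization. The count past 2-fold between conditions was 0 in whole-cell RNA with a pseudocount of 1. It was 0 in whole-cell RNA, in cytosolic RNA and in the shift with a minimum mean of 5 FPKM, and also without the SNHG9 locus, an alternative chosen after seeing the data. SNHG9 alone made these counts. Of the values of the 9 hosts with a counting error, 216 stayed within its 95% range under an alternative pseudocount or scaling. The other 54 moved by more, all of them under a scaling, and none past 2-fold changed sign. Both nuclear to cytosolic ratios of every one of these hosts but SNHG9 moved by more under each of the 3 scalings. No paired analysis was possible because each group has 1 library. Depth limits SNHG9, SNHG7 and SNHG15 most, and with 1 library per group no difference could be set against the spread between cultures.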
